A study of Mus musculus with 16 samples.

Results

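Epididymal white fat of Fgf21-knockout (Fgf21-KO) mice was compared with that of wild-type (WT) mice when both had received rosiglitazone. All Fgf21-KO and WT samples labelled as treated with the drug were taken, which gave 8 of the 16 arrays of the study, or 4 of its 8 RNA pools. Mice of both genotypes came from a mixed c57b6/sv129 background, were 4 to 5 months old, and had eaten a high-fat diet for 10 weeks until obese. Rosiglitazone was given at 10 mg/kg over the last 2 weeks. The same genotypes on the same diet without the drug, labelled vehicle in the series' design, served only as a side-by-side reading. Each pool held RNA of 2 mice and was hybridised to 2 arrays, so that each group had 2 pools (n = 2) and each pool value is a mean of 2 technical repeats. The labels do not say which part of Fgf21 was deleted or whether WT and knockout mice were littermates.

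FGF21 is a hormone of liver and fat that signals through FGF receptors bound to the co-receptor beta-klotho (Klb). Rosiglitazone is a thiazolidinedione, an agonist of the nuclear receptor PPARG, which drives the genes of lipid storage in adipocytes. The series was set up to ask whether the drug's action in fat needs FGF21, and the comparison described here asks how fat with and without Fgf21 differed while the drug was on board.

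Levels are normalized bead signals on the log2 scale, and a difference of 1 log2 unit is a doubling or halving. Of 25697 probes, 13759 were detected on at least 4 arrays and were tested, covering 9543 genes. The rosiglitazone arrays detected 47.6% to 51% of all probes each. The 2 arrays of a pool correlated at 0.9885 to 0.9928 over probes. WT pool 1 stood apart from the other 7 pools, at 68.5 on a first principal component that held 48.2% of the variance and on which the others lay between -16.8 and -0.3. The WT rosiglitazone pools were at least 1 log2 unit apart at 1364 probes, against 62 for the Fgf21-KO rosiglitazone pools, and levels are therefore given for each WT pool. Bead numbers per probe averaged 36.4 to 38.9 across the WT rosiglitazone arrays and 39.8 to 40.7 across the knockout ones, without overlap, so a chip or run that went with genotype cannot be told apart from genotype.

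The fat identity of the tissue was checked first. Of 14 adipocyte marker genes, 12 were tested, and each was detected on arrays of both genotypes. Their summed signal was 259400 and 302584 in the WT pools and 318243 and 314294 in the Fgf21-KO pools. Adipoq, which encodes the fat hormone adiponectin, stood at 15.04 and 15.10 in WT against 15.26 and 15.21 in Fgf21-KO, near the top of the scale.

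Fgf21 itself was low in the knockout. Its probe gave raw signals of 559.8 and 479.6 on the arrays of WT pool 1, 326.6 and 288 on those of WT pool 2, and 150.8, 168.2, 157.6 and 129.1 on the Fgf21-KO arrays, of which 1 of 4 passed detection. On the log2 scale the WT pools were at 8.37 and 7.17 and the Fgf21-KO pools at 5.22 and 5.54, a difference of -2.39 (SE 0.38, limma adjusted p = 0.1001). The knockout mean lay below both WT pools, at -2.99 against pool 1 and -1.80 against pool 2. Without background correction the difference was smaller, at -1.14. Under vehicle the main processing gave -2.28 (SE 0.38). The co-receptor Klb was at 9.75 and 9.60 in WT against 10.04 and 10.35 in Fgf21-KO, a difference of 0.52 (SE 0.19, limma adjusted p = 0.2804). The receptor Fgfr1 had no common direction, with 1.47 against WT pool 1 and -0.12 against WT pool 2. Dusp4, a phosphatase that dampens ERK signalling, was lower without overlap, at 9.94 and 10.07 against 10.48 and 10.40. Of the 15 FGF21 receptor and ERK feedback genes tested, Fgf21 included, 1 higher and 2 lower had an unadjusted p under 0.05 (20% of the list, near the 15.8% of all genes), and none passed adjustment.

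No probe passed a limma adjusted p of 0.05 (0% of 13759), and the lowest adjusted p was 0.0673. At an adjusted p of 0.1 there were 59 probes (0.429%), 13 higher and 46 lower in Fgf21-KO. An unadjusted p under 0.05 was reached by 2182 probes (15.9%), 1067 higher (7.75%) and 1115 lower (8.1%). That near balance depended on the scaling, since scaling each array by its median instead of by quantiles shifted the median of all probes to -0.17 and gave 435 higher and 2126 lower. The Fgf21-KO pools did not overlap the WT pools at 6373 probes (46.3%), so a lack of overlap alone says little about a gene. Differences are therefore given as measured values, and no gene is called changed.

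Reading the knockout against each WT pool left few of the large differences. A mean difference of 1 log2 unit or more was found at 662 probes, of which 430 reached that size against WT pool 1 only and 79 against WT pool 2 only. At 153 probes (1.11%) the knockout lay 1 log2 unit or more from each WT pool on the same side without overlap. Of these, 23 were higher (0.167%) and 130 lower (0.945%), and they named 21 higher and 114 lower genes. With WT pool 1 left out, 353 probes lay that far from the remaining WT pool, 64 higher and 289 lower. With WT pool 2 left out there were 1665, 1154 higher and 511 lower. The large differences were therefore mostly lower when both WT pools were required, and mostly higher against WT pool 1 alone.

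**Figure D1:**
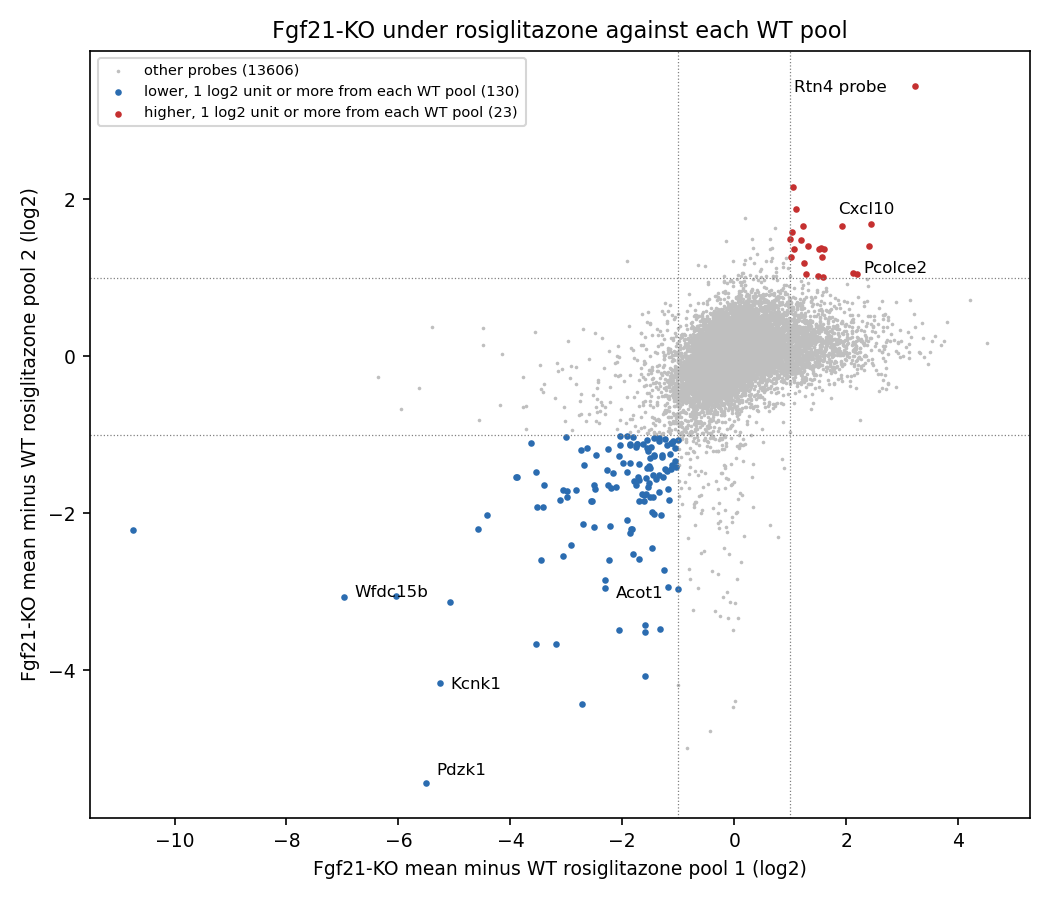
Each point is 1 of 13759 probes, with the Fgf21-KO rosiglitazone mean minus WT rosiglitazone pool 1 on the horizontal axis and minus pool 2 on the vertical axis, both in log2 units; dotted lines mark 1 log2 unit. Coloured points are the 153 probes that lay that far from each WT pool, 130 lower and 23 higher, and the grey arms along each axis are probes that differed from 1 WT pool only.

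The genes furthest below both WT pools were, for the most part, at the background in the knockout and clearly lit in WT. Pdzk1, a scaffold that holds transporters at the apical membrane of epithelial cells, stood at 10.25 and 10.19 in the WT pools and at 4.73 and 4.77 in the Fgf21-KO pools, a difference of -5.47 (SE 0.99, limma adjusted p = 0.1357). It was detected on 4 of 4 WT arrays and 0 of 4 Fgf21-KO arrays, and against the dimmest detected signals it was at least 23.4-fold lower. Kcnk1, a background potassium channel, read 10.20 and 9.11 against 4.87 and 5.03, at least 15.8-fold lower (limma adjusted p = 0.08348). Esrp1, a splicing factor of epithelial cells, read 9.81 and 7.85 against 4.71 and 4.74, at least 8.92-fold lower (limma adjusted p = 0.09065). In these 3 genes the WT pools did not overlap the knockout pools, none of whose arrays detected the genes, so the distance itself is known only as a bound. It also depended on the background step: without background correction the differences were -3.40 for Pdzk1, -2.76 for Kcnk1 and -2.27 for Esrp1.

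Others of this kind were Wfdc15b, a secreted protein of the whey acidic protein family, at least 20.8-fold lower (limma adjusted p = 0.1626). Rbfox3, a splicing factor best known as a neuronal marker, was at least 17.1-fold lower (limma adjusted p = 0.1435). For both, WT pool 1 was far above WT pool 2, with 12 against 8.10 for Wfdc15b and 11.26 against 8.28 for Rbfox3, and without background correction the differences were -3.07 and -2.80. The adhesion protein Cdh16 (at least 7.68-fold), the membrane-protrusion protein Prom2 (5.59-fold), the secreted protein Mia (7.05-fold), the coactivator Cited4 (5.8-fold), the endocytic protein Sh3gl2 (4.54-fold) and the T-type calcium channel Cacna1h (4.12-fold) had limma adjusted p-values from 0.07052 to 0.1624. Among the 130 far lower probes, 49 were detected on 4 of 4 WT arrays and on 0 of 4 Fgf21-KO arrays. Detection on 4 arrays was enough for a test, so a probe lit on the WT rosiglitazone arrays alone could enter through them. Under vehicle these genes were mostly dim in both genotypes, although WT vehicle pool 2 held Pdzk1 at 8.05, Cdh16 at 7.66, Kcnk1 at 7.45 and Prom2 at 7.19.

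Acot1 differed from these in being detected on all 8 rosiglitazone arrays. It encodes a cytosolic thioesterase that frees fatty acids from coenzyme A, and in mouse liver it is a known target of PPARA. Its brightest probe stood at 8.67 and 9.21 in WT against 6.40 and 6.33 in Fgf21-KO, a difference of -2.57 (SE 0.26, limma adjusted p = 0.07052). The gap was of similar size against both WT pools, at -2.30 and -2.85. Under vehicle the genotypes overlapped, at 6.53 and 6.82 in WT against 6.52 and 7.11 in Fgf21-KO, and the interaction was -2.71 (SE 0.37, limma adjusted p = 0.5021). A second Acot1 probe gave 5.17 and 7.06 in WT against 5.22 and 5.37 in Fgf21-KO, so it placed the knockout below WT pool 2 only.

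The upstream sequences of Pdzk1, Acot1 and Plin2 are shown because PPARG binds a direct repeat spaced by 1 base, and these genes differed on opposite sides. Pdzk1 and Acot1 lay lower in Fgf21-KO, and Plin2 lay higher by less than 1 log2 unit. They are the 250 bases before the annotated start in RefSeq on GRCm38.p6, read 5′ to 3′ along the gene, for Pdzk1 at chr3:96829815-96830064 on the plus strand, Acot1 at chr12:84009252-84009501 on the plus strand and Plin2 at chr4:86670060-86670309 on the minus strand. Capitals mark the stretch that matched a pair of AGGTCA half-sites spaced by any 1 base, on either strand, with at most 2 mismatches.
Pdzk1: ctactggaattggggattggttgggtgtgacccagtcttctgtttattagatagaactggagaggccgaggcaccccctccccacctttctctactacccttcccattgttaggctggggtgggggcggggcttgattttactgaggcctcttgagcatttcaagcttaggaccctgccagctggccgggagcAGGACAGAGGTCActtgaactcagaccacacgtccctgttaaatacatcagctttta
Acot1: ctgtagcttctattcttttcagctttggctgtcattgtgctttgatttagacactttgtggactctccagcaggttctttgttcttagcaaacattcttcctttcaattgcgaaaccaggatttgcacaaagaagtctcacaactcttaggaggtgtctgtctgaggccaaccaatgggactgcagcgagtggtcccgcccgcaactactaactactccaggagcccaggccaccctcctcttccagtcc
Plin2: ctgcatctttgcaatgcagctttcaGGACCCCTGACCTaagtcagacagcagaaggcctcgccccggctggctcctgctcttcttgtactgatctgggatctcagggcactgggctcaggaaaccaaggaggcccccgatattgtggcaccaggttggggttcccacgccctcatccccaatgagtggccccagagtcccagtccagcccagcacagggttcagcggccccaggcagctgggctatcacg
Pdzk1 held a match with 1 mismatch that began 57 bases before the start, Plin2 held a match with 2 mismatches that began 225 bases before it on the opposite strand, and no stretch of the Acot1 window matched. Of 32851 promoter windows of this length, 1063 held a match (3.24%), and of the 34 windows annotated to 24 PPARG target genes, 4 did. Windows of a gene can overlap and hold the same match, as those of Aqp7 did, so windows are not separate promoters. A match is a string of letters and no evidence of binding.

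**Figure D2:**
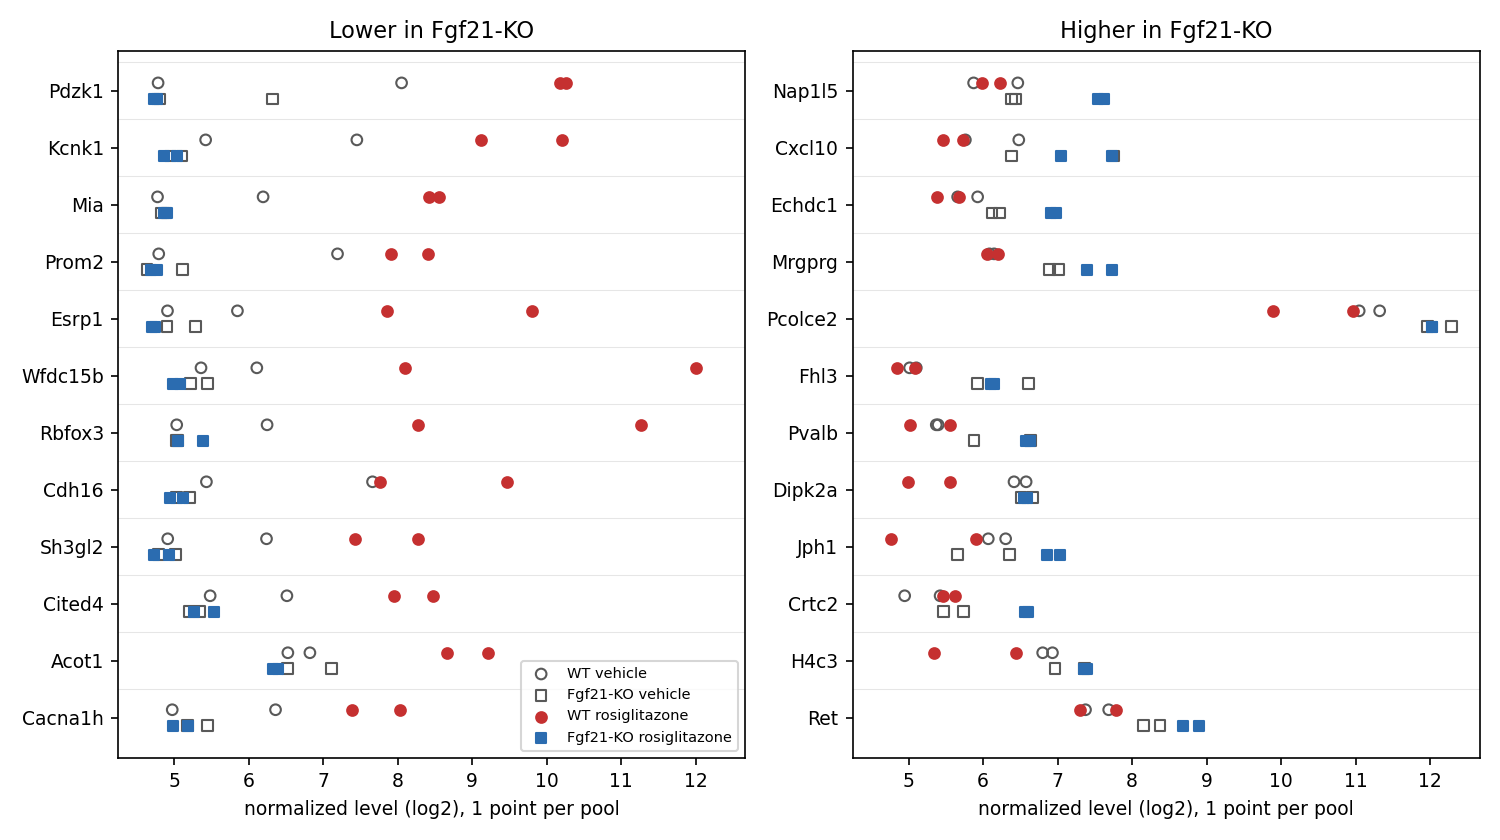
Normalized level on the log2 scale, 1 point per pool, for the 12 genes with the widest gap between pools in each direction, by the brightest probe of each gene. In the left panel the filled blue squares (Fgf21-KO rosiglitazone) lie left of both filled red circles (WT rosiglitazone) for all 12 genes, from Pdzk1 at 4.73 and 4.77 against 10.25 and 10.19 down to Cacna1h, and in the right panel they lie right of them.

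Epithelial and mast cell markers were also lower, alongside these genes. Of 16 epithelial markers tested, 15 were lower, 13 of them at an unadjusted p under 0.05 (9.28% of all genes were), and 14 were lower without overlap (27% of all genes and 24.1% of all probes were). Their median difference was -1.57, with -1.95 against WT pool 1 and -0.98 against WT pool 2, beside a median of -0.05 over all 9543 genes. For comparison with the counts of direction given here and below, 4217 of all genes were higher and 5325 lower. Under vehicle 4612 were higher and 4925 lower. Summed epithelial signal was 5781 and 3699 in the WT pools and 1341 and 1034 in the Fgf21-KO pools. It was 1980 and 2558 in WT vehicle and 1914 and 1664 in Fgf21-KO vehicle. Of the 29 markers on the list, those not tested failed the detection filter or had no probe, and 6 of the 16 tested were not detected on any Fgf21-KO rosiglitazone array. A gene lit on the 4 WT rosiglitazone arrays alone passed that filter and would read lower. The filter can therefore set part of the count of lower genes. The keratin Krt8, which is in the mesothelial list too, read 10.22 and 9.88 against 7.94 and 7.47, a difference of -2.35 (SE 0.30, limma adjusted p = 0.08348). The epithelial transcription factor Elf3 read 7.04 and 7.44 against 5.04 and 5.33. The part of epithelial cells in the differences of Pdzk1, Esrp1 and the like was not tested, and in pooled tissue RNA fewer cells of a type and less RNA per cell cannot be told apart.

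Mast cell genes were lower by a similar amount against both WT pools. Of 10 tested, 9 were lower, 7 at an unadjusted p under 0.05 and 9 without overlap (9.28% and 27% of all genes), with a median of -1.02 against both pools together, -1.06 against pool 1 and -0.86 against pool 2. Mcpt4, a mast cell protease, read 8.48 and 8.35 in WT against 7.48 and 7.36 in Fgf21-KO, a difference of -1 (SE 0.13, limma adjusted p = 0.08348). The tryptase Tpsb2 read 8.11 and 7.88 against 6.81 and 7.05 (-1.07, SE 0.16, limma adjusted p = 0.09065), and the chymase Cma1 read 7.45 and 7.20 against 6.38 and 6.45. The WT rosiglitazone pools were the high ones here, since summed mast cell signal was 4146 and 3359 in them, 1762 and 1699 in Fgf21-KO rosiglitazone, 1942 and 2346 in WT vehicle and 1773 and 1450 in Fgf21-KO vehicle. Of the 10 genes, 1 was not detected on any Fgf21-KO rosiglitazone array, and the detection filter bears on this list as on the epithelial one.

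Other tissue markers depended on which WT pool was read. Smooth muscle genes, 14 tested and 12 lower, had a median of -2.19 against WT pool 1 and -0.22 against WT pool 2, and their summed signal was 114476 in WT pool 1, 26742 in WT pool 2 and 26450 and 21055 in Fgf21-KO. Ciliated cell genes showed the reverse, with a median of -0.07 against pool 1 and -2.15 against pool 2 over 7 genes. Epididymis and vas deferens genes were tested at 7 of 41, and 3 of them (Wfdc15b, Wfdc2 and Aqp9) lay far below both WT pools (109 of all 9543 genes did), while the list's median was -0.85 against pool 1 and -0.03 against pool 2. Mesothelial genes had medians of -0.59 and -0.83 against the WT pools with 13 of 17 lower, but Fgf21-KO pool 2 carried most of this, since the median was -0.33 without it and -1.10 without Fgf21-KO pool 1. Their summed signal overlapped, at 16449 and 23043 in WT and 18979 and 15088 in the knockout. The mesothelial and epithelial lists share keratin genes, Krt8, Krt18 and Krt19 among them, so they are not separate readings. In the epididymal and the ciliated list, 2 of 7 genes each were not detected on any Fgf21-KO rosiglitazone array. The same held for 1 of 14 smooth muscle and 1 of 17 mesothelial genes. The detection filter therefore bears on these lists as on the epithelial one. Without background correction the medians shrank to -0.81 for epithelial, -0.59 for mast cell and -0.43 for mesothelial genes. These marker levels were therefore uneven between pools, and their part in single genes was not tested.

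Genes of the liver marker list had a median difference of -0.68, with 14 of 17 lower and 12 lower without overlap (27% of all genes), but none of the lower ones had an unadjusted p under 0.05, and the median was -0.30 without background correction. Their summed signal did not follow that count, at 35445 and 40262 in WT against 40862 and 46256 in Fgf21-KO, and Cyp2e1, one of its brightest members, was higher in Fgf21-KO at 13.64 and 14.26 against 13.23 and 12.32. Mup2 read 11.03 and 11.54 in WT against 9.85 and 9.25. The same list was higher in Fgf21-KO under vehicle, with a median of 1.00, and 1 pool held most of it, since summed signal was 107437 in Fgf21-KO vehicle pool 2 and 49182 in pool 1. Liver genes thus varied from pool to pool in both genotypes.

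**Figure D3:**
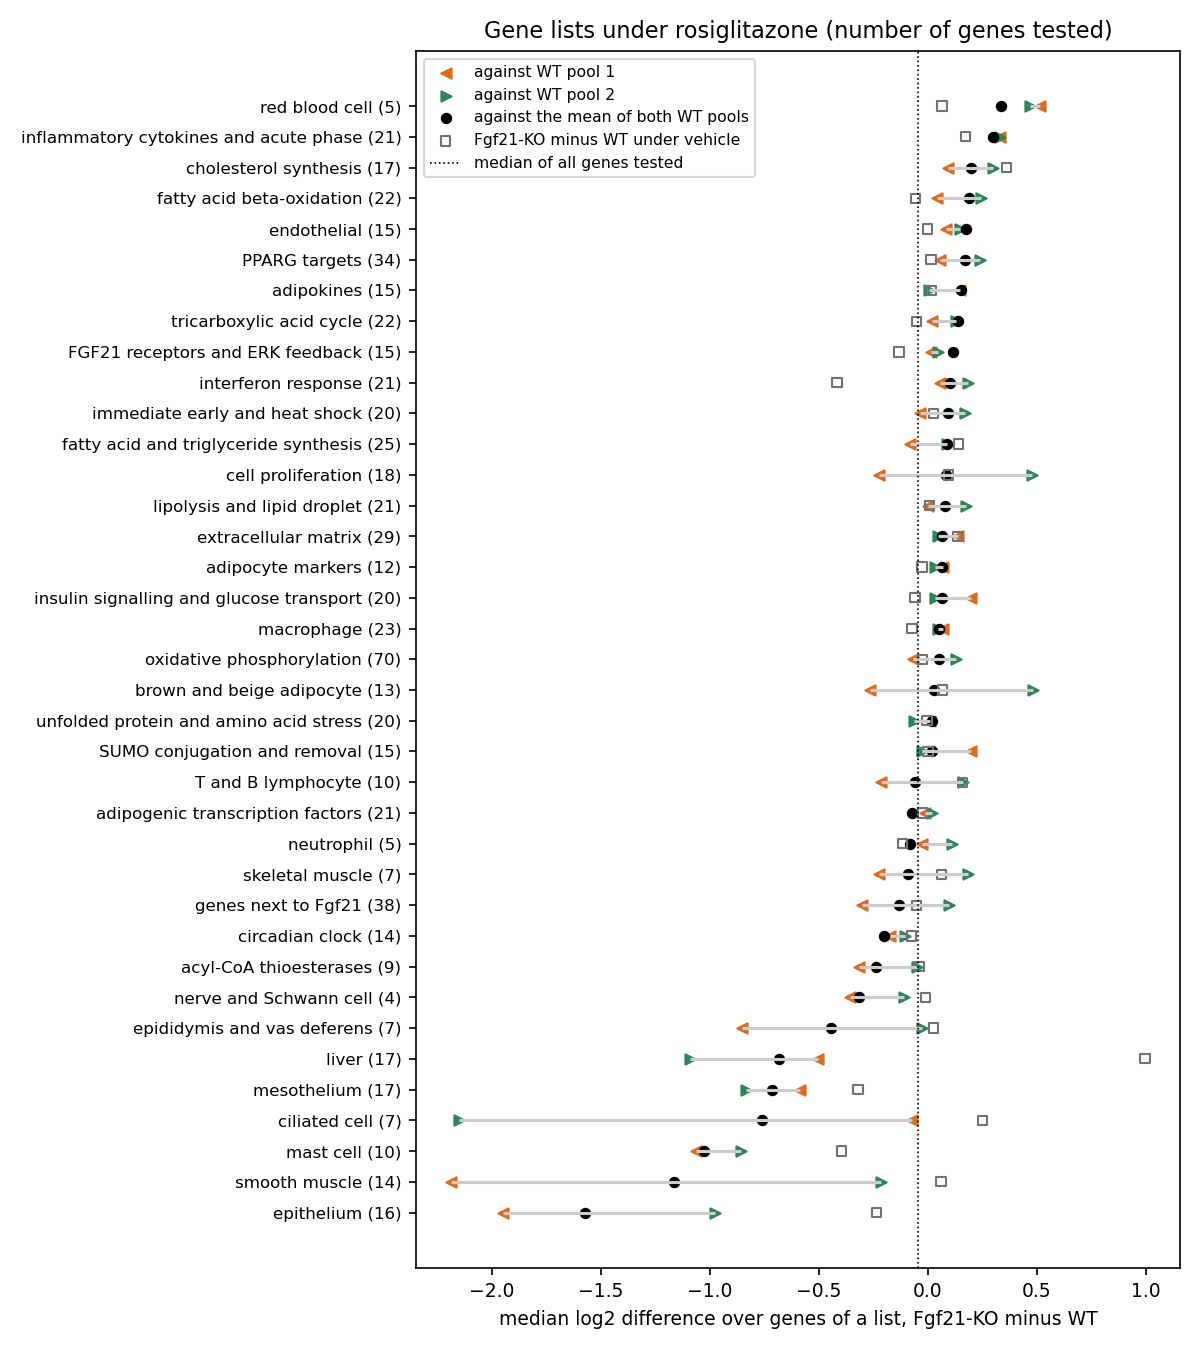
Median log2 difference, Fgf21-KO minus WT, over the tested genes of 37 lists, against the mean of both WT rosiglitazone pools (black), against each WT pool (triangles) and under vehicle (open squares); the dotted line is the median of all genes. Epithelial and mast cell lists lie left of the line against both WT pools, with medians of -1.57 and -1.02, whereas the smooth muscle and ciliated cell triangles are far apart.

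The differences on the higher side were smaller. Nap1l5, an imprinted nucleosome assembly protein-like gene, stood at 5.99 and 6.22 in WT against 7.63 and 7.54 in Fgf21-KO, a difference of 1.48 (SE 0.21, limma adjusted p = 0.09065). Echdc1, which repairs a side product of acetyl-CoA carboxylase, read 5.38 and 5.68 against 6.98 and 6.91 (1.42, SE 0.16, limma adjusted p = 0.07312), with detection on 1 of 4 WT arrays, so its WT level is near the floor. Mrgprg, a Mas-related G protein-coupled receptor, read 6.05 and 6.20 against 7.39 and 7.73 (1.44, SE 0.16, limma adjusted p = 0.07052). These 3 genes had pools that did not overlap and gaps of at least 1.19 log2 units.

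Cxcl10, a chemokine induced by interferon, read 5.46 and 5.73 in WT against 7.73 and 7.04 in Fgf21-KO (1.79, SE 0.48, limma adjusted p = 0.2179). Pcolce2, an enhancer of procollagen processing, read 9.90 and 10.97 against 12.02 and 12.03 (1.59, SE 0.34, limma adjusted p = 0.1571). The receptor tyrosine kinase Ret read 7.79 and 7.30 against 8.68 and 8.90 (1.25, SE 0.21, limma adjusted p = 0.1295). All 3 also lay higher in Fgf21-KO under vehicle, by 0.94, 0.94 and 0.73, with overlap of pools for Cxcl10. Taking the brightest probe of each gene, the remaining 6 of the 12 widest upward gaps were Fhl3, Pvalb, Dipk2a, Jph1, Crtc2 and H4c3, with differences of 1.04 to 1.62 and limma adjusted p-values from 0.09884 to 0.1801, and Fhl3 and Pvalb were not detected on any WT rosiglitazone array (at least 1.41-fold and 1.95-fold higher).

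Genes of lipid storage did not follow the direction of Acot1. Of 34 PPARG target genes tested, 25 were higher and 9 lower in Fgf21-KO, with a median of 0.17, or 0.06 against WT pool 1 and 0.24 against WT pool 2. At an unadjusted p under 0.05 there were 7 higher and 1 lower (23.5% of the list, beside 15.8% of all genes), and none passed adjustment. Slc27a1, a fatty acid transporter, read 11.36 and 11.04 in WT against 12.09 and 12.36 in Fgf21-KO (1.02, SE 0.18, limma adjusted p = 0.1295). Plin2, which coats lipid droplets, read 11.14 and 11.18 against 11.87 and 11.96 (0.75, SE 0.14, limma adjusted p = 0.1357). Cyp4b1, a fatty acid hydroxylase of the cytochrome P450 family, read 10.81 and 10.93 against 11.45 and 11.78 (0.74, SE 0.15, limma adjusted p = 0.1502). Each of these lay above both WT pools.

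The receptor gene Pparg was at 13.13 and 13.52 in WT against 13.24 and 13.09 in Fgf21-KO, a difference of -0.17 (SE 0.18, limma adjusted p = 0.6216) with opposite signs against the WT pools. Adipoq differed by 0.16 (SE 0.12) and the fat hormone resistin (Retn) by -0.28 (SE 0.16). The insulin-responsive glucose transporter Slc2a4 read 9.09 and 10.17 against 10.30 and 10.66, which was 1.39 above WT pool 1 and 0.32 above WT pool 2. The gluconeogenic and glyceroneogenic enzyme Pck1 read 7.82 and 7.39 against 6.53 and 7.33. The fatty acid binding and uptake genes Fabp4 and Cd36, which adipocytes make in quantity, were represented by dim probes at 5.25 to 6.62 in these pools, close to the lowest detected signals, and carry little information here. Ucp1, the thermogenic uncoupling protein, overlapped between genotypes, at 9.85 and 8.79 against 9.49 and 9.95.

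Genes of fatty acid and triglyceride synthesis had no common direction. Of 25 tested, 14 were higher and 11 lower (median 0.09), and at an unadjusted p under 0.05 there were 5 lower and 3 higher (32% of the list, beside 15.8% of all genes). The 3 higher, chosen after their values were seen, were Fads3 (0.51), Gpam (1.11) and Gpd1 (0.41). Elovl6, which lengthens palmitate, read 8.85 and 8.27 in WT against 7.43 and 7.22 in Fgf21-KO (-1.24, SE 0.24, limma adjusted p = 0.1413). Fads1, a fatty acid desaturase, read 13.43 and 12.55 against 11.92 and 11.62 (-1.22, SE 0.28, limma adjusted p = 0.1716), and Acaca, the acetyl-CoA carboxylase that makes malonyl-CoA, read 12.72 and 12.37 against 11.94 and 11.86 (-0.65, SE 0.16, limma adjusted p = 0.1801). The stearoyl-CoA desaturase Scd1 read 15.64 and 15.61 against 15.27 and 15.20 (-0.39, SE 0.12, limma adjusted p = 0.2446). These 4 were lower against both WT pools, and under vehicle they differed by 0.18, -0.06, -0.15 and -0.07. The remaining 1 of the 5 lower, Fads2, had the list's lowest value (-2.01, SE 0.59, limma adjusted p = 0.2398). It read 8.68 and 6.70 in WT against 5.77 and 5.59 in Fgf21-KO, with WT pool 1 well above WT pool 2. Fads2 was detected on 2 of 4 Fgf21-KO rosiglitazone arrays and differed by 0.16 under vehicle. Fasn, the fatty acid synthase, overlapped between genotypes at 7.22 and 6.95 against 7.19 and 6.64. Among 9 acyl-CoA thioesterases, Acot1 and Acot11 (8.39 and 7.85 against 6.99 and 6.96) were the 2 with an unadjusted p under 0.05 (22.2% lower, beside 9.28% of all genes). Of the 9, 6 were lower, as were 5325 of all 9543 genes, and the median was -0.32 against WT pool 1 and -0.05 against WT pool 2.

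Genes of fat burning differed by small amounts. Of 22 beta-oxidation genes 17 were higher (median 0.19), with 0.04 against WT pool 1, 0.25 against WT pool 2 and -0.03 with median scaling. At an unadjusted p under 0.05 there were 2 higher and 0 lower (9.09% of the list, beside 6.54% of all genes higher). The carnitine-acylcarnitine carrier Slc25a20 read 12.51 and 12.60 in WT against 13.09 and 13.30 in Fgf21-KO (0.64, SE 0.17, limma adjusted p = 0.2082). Of 70 oxidative phosphorylation genes, 41 were higher and 29 lower (median 0.05), and the 12 with an unadjusted p under 0.05 were all higher. That was 17.1% of the list, beside 6.54% of all genes higher and 15.8% in either direction. The ATP synthase subunit gene Atp5o read 9.01 and 9.36 against 10.02 and 10.04 (0.84, SE 0.15, limma adjusted p = 0.1301). The list's median changed sign between the WT pools, at -0.07 and 0.13, so no shift of the list as a whole was seen. Of 17 cholesterol synthesis genes, 15 were higher (median 0.20, and -0.001 with median scaling), as were 16 under vehicle (median 0.36), and Dhcr7 read 7.10 and 6.91 against 7.62 and 7.49.

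**Figure D4:**
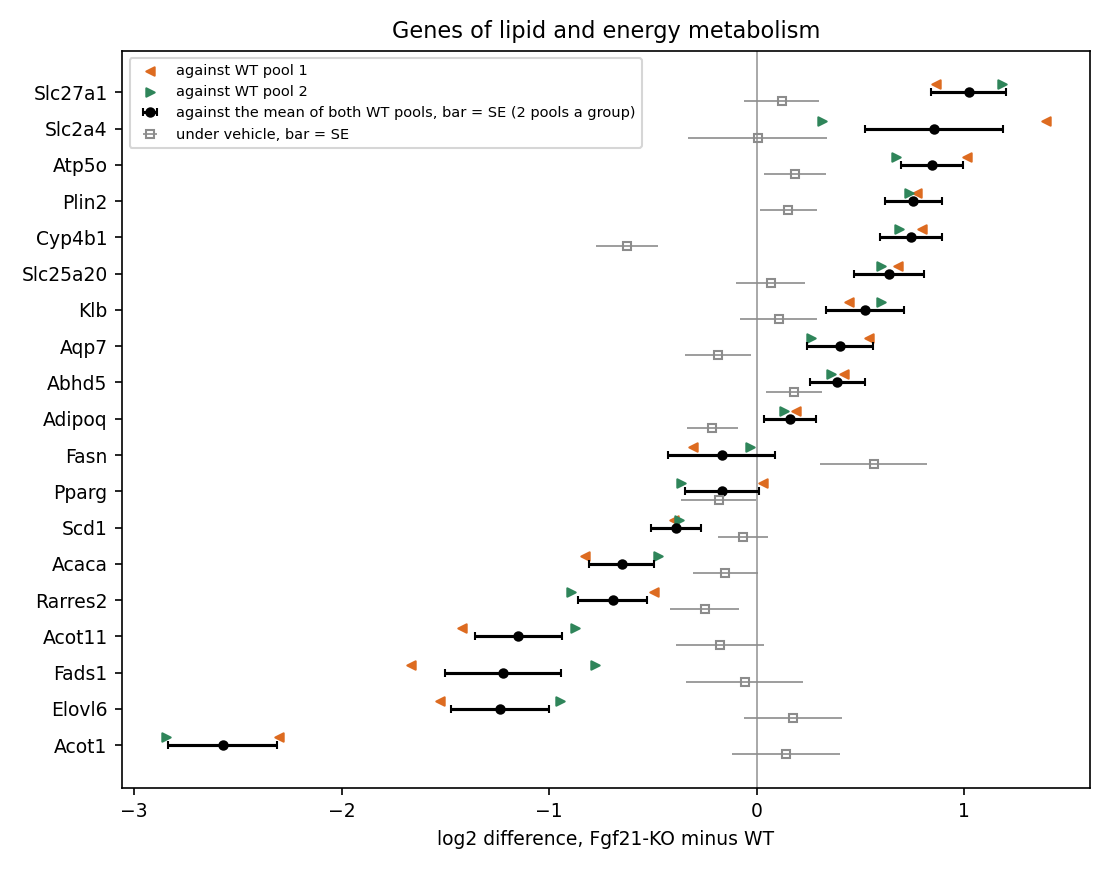
Log2 difference, Fgf21-KO minus WT under rosiglitazone, with SE bars from the limma fit (2 pools a group), for 19 genes of lipid and energy metabolism, beside the values against each WT pool (triangles) and under vehicle (grey squares). Acot1 lies at -2.57 and Elovl6, Fads1 and Acot11 between -1.24 and -1.15, all below both WT pools, while Slc27a1 lies at 1.02 and Plin2 at 0.75.

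Inflammatory genes were higher as a count, with exceptions that went the other way. Of 21 cytokine and acute phase genes, 14 were higher (median 0.30, and 0.33 against each WT pool), 6 of them and 1 lower at an unadjusted p under 0.05 (33.3% of the list, beside 15.8% of all genes). Under vehicle 14 were higher too and 7 lower (median 0.17). Summed signal of the list overlapped under rosiglitazone, at 79352 and 94200 in WT against 94505 and 90337 in Fgf21-KO. Ccl2, which recruits monocytes, read 6.50 and 6.97 in WT against 8.09 and 7.55 in Fgf21-KO (1.08, SE 0.27, limma adjusted p = 0.1888). The acute phase gene Orm2 read 7.58 and 7.60 against 8.36 and 8.38 (0.78, SE 0.13, limma adjusted p = 0.118) and differed by as much under vehicle, at 0.85. Lcn2, an iron-scavenging acute phase protein, was the 1 on the lower side, at 10.16 and 11.99 against 8.75 and 8.39 (-2.51, SE 0.56, limma adjusted p = 0.1691). Of 23 macrophage genes, 14 were higher and 9 lower (median 0.05), and the scavenger receptor Cd163 read 10.05 and 10.01 against 9.34 and 9.26. Summing over the list, macrophage genes thus gave no common direction.

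Pools did not overlap at 16 of 29 matrix, 8 of 14 clock and 10 of 15 endothelial genes, or 55.2%, 57.1% and 66.7%, beside 46.7% of all genes. Thbs2, a matricellular thrombospondin, read 12.02 and 12.60 in WT against 10.72 and 10.46 in Fgf21-KO (-1.72, SE 0.31, limma adjusted p = 0.1295), whereas the 29 matrix genes had a median of 0.07. The collagens Col18a1 and Col16a1 were lower by -0.61 (SE 0.13) and -0.88 (SE 0.20). Of 14 circadian clock genes, 4 were lower at an unadjusted p under 0.05 (28.6%, beside 9.28% of all genes) and none higher, among them Per2 (-0.65), Dbp (-0.74) and Nr1d1 (-0.52), and these 3 were also lower under vehicle, by -0.74, -1.03 and -0.48. Dbp lies near Fgf21 on chromosome 7, and of 38 tested genes near Fgf21 there were 14 higher and 24 lower (median -0.13, with -0.30 and 0.10 against the WT pools). Of all 9543 genes, 4217 were higher and 5325 lower. Of 15 endothelial genes, whose median was 0.18 and turned to -0.09 with median scaling, 4 were higher and none lower at an unadjusted p under 0.05 (26.7%, beside 6.54% of all genes higher), with Pecam1 at 9.19 and 10.73 against 11.13 and 11.38. Times of tissue collection are not given in the labels, and their part in the clock genes was not tested.

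The vehicle pools, which share no sample with the rosiglitazone pools, were read for the same 153 probes. Under vehicle the genotype difference passed adjustment at 0 probes by limma, with 655 at an unadjusted p under 0.05 (4.76%). The interaction, which tests whether the genotype difference itself differed between treatments, passed at 0 probes, with 681 at an unadjusted p under 0.05 (4.95%) and a lowest adjusted p of 0.502. Of the 130 far lower probes, 40 were lower without overlap under vehicle too and 4 were higher, where 22.5% of all probes were lower and 20.4% higher without overlap. Of the 23 far higher probes, 19 were also higher without overlap under vehicle and 0 lower. The median vehicle difference was -0.25 over the far lower probes and 0.87 over the far higher ones.

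A smaller set of 22 probes, 14 lower and 8 higher, differed by at least 1 log2 unit without overlap under both treatments. Fgf21 was one of them, and Rprml, a reprimo-like gene, was the closest to it in pattern, at 7.52 and 6.82 in WT against 4.93 and 5.01 in Fgf21-KO under the drug (at least 2.82-fold lower, limma adjusted p = 0.07052) and -2.15 (SE 0.25) under vehicle. Thbs2, Lcn2, Kcnk1, Cdh16, Rsph1 and Cldn10 were also in this set. The largest value on the higher side, chosen after its values were seen, came from 1 of 3 Rtn4 probes, for a reticulon of the endoplasmic reticulum. That probe read 5.14 and 4.91 in WT against 7.90 and 8.82 in Fgf21-KO, at least 6.59-fold higher (limma adjusted p = 0.06732), with 2.60 (SE 0.30) under vehicle. The other probes of Rtn4 gave 0.92 and 0.80 under rosiglitazone and 0.00 and -0.12 under vehicle. Likewise 1 probe each of Slu7 (2.06) and Gnl2 (-1.94) departed from the brighter probe of its gene, which read 0.05 and -0.27. One Capzb probe, for an actin-capping subunit, read 8.79 and 8.97 in WT against 10.34 and 10.35 in Fgf21-KO (1.46, SE 0.13, limma adjusted p = 0.06732) and was detected on all 8 arrays, and the gene's other probes gave 0.77 and 0.72. For these genes the size of the value therefore belongs to the probe, and why probes of a gene differ was not tested.

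**Figure D5:**
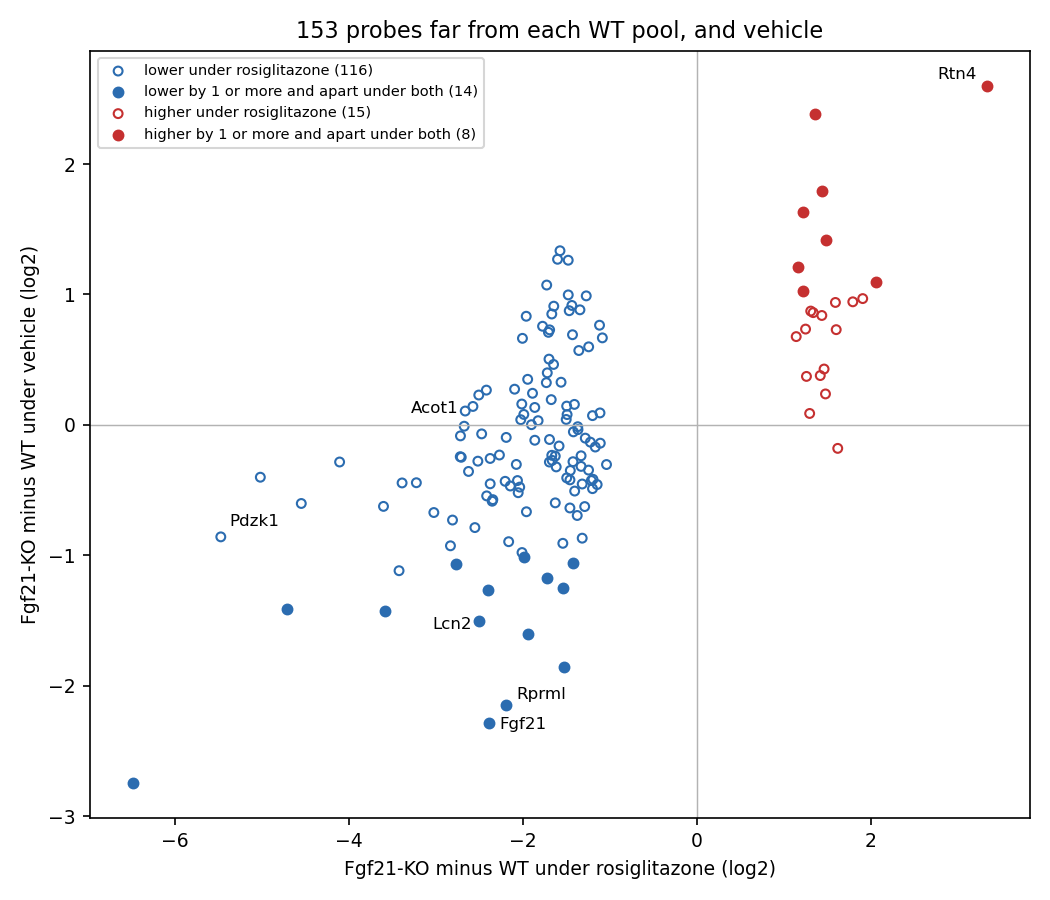
Genotype difference under rosiglitazone (horizontal) and under vehicle (vertical), Fgf21-KO minus WT in log2 units, for the 153 probes that lay at least 1 log2 unit from each WT rosiglitazone pool; filled points differed by that much without overlap under both treatments (14 lower, 8 higher). Fgf21 and Rprml lie near -2 on both axes, while Pdzk1 and Acot1 are far from 0 on the horizontal axis, with vehicle values of -0.86 and 0.14.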

How the data were processed

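RNA from epididymal fat was hybridised to single-colour Illumina bead arrays. Per the file headers, the deposited non-normalized table holds a mean bead intensity and a detection p-value for every probe and array, and both were used. The authors' deposited normalized table, also linear intensity, was read only as an alternative, and 64 columns were not used. The build used by the authors is not given in the sources used here.

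Background correction of the intensities used limma's nec with the detection p-values and an offset of 16 (limma 3.58.1, R 4.3.3). Quantile normalization and a log2 transform followed, and repeat arrays of a pool were averaged. A probe was tested if its detection p reached 0.05 on 4 or more of the 16 arrays. A gene symbol was available for 23978 probes, through the Entrez ID for 23962, and the brightest probe represents a gene in counts over genes. The 8 pools entered a single limma fit of 4 groups (lmFit, eBayes; 4 residual and 2.75 prior degrees of freedom), two-sided, with Benjamini-Hochberg adjustment over all probes. SE is that of the log2 difference. P-values measure only the spread between pools, and precision is limited by the 2 pools of a group.

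Named genes, by the brightest probe of a gene, were the 12 widest gaps between pools in each direction with an unadjusted p under 0.05, the 8 smallest p, up to 3 of smallest p in each of 37 lists and a panel of 14. Members, lists and rules were chosen with earlier results of these data known. A bound ("at least") sets the bright group's mean against the lowest detected signal of the dim group's arrays, or the dim probe's own where higher. The fit was tested on simulated data over 13759 probes for this comparison: with 200 probes moved by 1, 2 or 4 log2 units it called 32%, 95% and 100% of them. The simulation gave all groups an equal spread, whereas the measured WT rosiglitazone pools were further apart than those of the other groups. These shares therefore do not give the power reached in the measured data.

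Same-numbered pools are different mice, and their deviations from the group means correlated at -0.102 to 0.273 between groups, so the numbers were not taken as pairs. Alternatives changed the background step, scaling, source, probe filter, variance model and pools.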

Additional observations from a re-analysis of the deposited data

Results flagged for a closer look

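Among the 139 named genes, 9 had genotype pools apart in opposite directions under rosiglitazone and under vehicle, and these are listed for that reason. The share of all probes with this pattern was not counted. Of all probes, 22.3% were apart and higher and 24.1% apart and lower under rosiglitazone, and 20.4% and 22.5% under vehicle. The 9 are therefore not shown to exceed the background. The difference between treatments was tested by the interaction, which none of the 9 passed in limma (adjusted p 0.6492 to 0.8268). Higher in Fgf21-KO under rosiglitazone and lower under vehicle were Cyp4b1 (interaction 1.37, SE 0.21), Ifi47, an interferon-induced GTPase (1.68, SE 0.31), Aqp7, the glycerol channel of fat (0.59, SE 0.22), Ranbp2 (0.55, SE 0.22; detected on 1 or 2 of 4 arrays in each group, so its levels are near background), Sox17 (0.42, SE 0.18) and Adipoq (0.38, SE 0.17). Lower under rosiglitazone and higher under vehicle were the liver gene Serpina1a (-1.54, SE 0.41), the T cell gene Cd3e (-1.02, SE 0.33), not detected on any Fgf21-KO rosiglitazone array, and the myelin gene Mbp (-0.48, SE 0.23). Cyp4b1 read 0.74 under rosiglitazone and -0.62 under vehicle, and Ifi47 read 0.46 and -1.22.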

How the results depend on the processing

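The choice of WT pool mattered most. Leaving out each pool in turn gave 0 to 3391 probes past a limma adjusted p of 0.05, 1085 to 5477 at an unadjusted p under 0.05, and 148 to 1665 far from each WT pool. The upper ends all came from leaving out WT rosiglitazone pool 2; of those 3391 probes, 2602 (76.7%) had the same sign against the pool left out. Without WT rosiglitazone pool 1 there were 60 past adjustment, 57 of them with the same sign against the pool left out. In these fits the lone pool was taken to vary like the other groups. The interaction gave 0 to 1702, and Fgf21 differed by -2.99 to -1.80 (-1.14 without background correction and with the authors' values, -1.74 with an offset of 50), past adjustment without WT rosiglitazone pool 2. The other alternatives gave few calls unless arrays were treated as separate samples: probes past adjustment numbered 1 without background correction and with the authors' deposited values, 5 with an offset of 50, 57 with median scaling, 2 with only the rosiglitazone pools in the fit, 13 with a trended robust variance and 666 with arrays kept apart and pool as a random block (Fgf21 at -2.39, adjusted p 0.00134, and at -2.45, adjusted p 0.0472, with median scaling). It was 0 with no probe filter, with only probes detected on all 8 rosiglitazone arrays and with pool weights. Unadjusted calls fell to 1082 with only the rosiglitazone pools and 1278 with pool weights. Far probes numbered 34 without background correction and with the authors' values, 83 with an offset of 50 and 51 among probes detected on all 8 rosiglitazone arrays, so the size of the dimmest differences depends on the background step. Under vehicle, probes past adjustment numbered 3, 2, 3, 2, 41, 3 and 9 for no background correction, an offset of 50, the authors' values, probes detected on all 8 rosiglitazone arrays, arrays kept apart, trended variance and pool weights, and the interaction gave 22 with arrays kept apart. With the replicate block, unadjusted calls were 2230 and adjusted calls 0. Of 139 named genes, 133 kept their sign in all alternatives, and Fgfr1 (-0.12), Pparg (0.03), Cd36 (0.03), Fasn (0.11), Ucp1 (-0.13) and Pmp22 (0.00) each took the other sign in 1 or more. Except where stated, causes were not tested. With 2 pools a group and an equal spread in all groups, 32% of simulated differences of 1 log2 unit were called. The measured WT rosiglitazone pools were further apart than those of the other groups. How many differences of that size were missed in the measured data is therefore not known.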

Other observations

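Some gene groups not described above gave these values. Of 18 proliferation genes, 18 were higher than WT pool 2 and 6 higher than WT pool 1, with medians of 0.48 and -0.22, and Top2a, the topoisomerase of dividing cells, read 5.44 and 6.37 in WT against 7.10 and 6.86 in Fgf21-KO. Red blood cell genes were higher in 5 of 5 (median 0.34), with Slc4a1, the anion exchanger of red cells, at 5.96 and 5.65 against 6.52 and 7.27. Of 15 SUMO pathway genes, 9 were higher and 6 lower (median 0.02). At an unadjusted p under 0.05 there were 3 higher and 0 lower (20% of the list, beside 6.54% of all genes higher), among them the SUMO protease Senp3 at 10.22 and 10.53 against 10.78 and 10.85. The interferon response list had a median of 0.10 under rosiglitazone and -0.42 under vehicle, with 18 of 21 genes lower under vehicle (4925 of all 9543 genes were). Among adipokines, chemerin (Rarres2) read 14.44 and 14.84 against 13.97 and 13.93 (-0.69, SE 0.17, limma adjusted p = 0.1801), and Retnla read 12.90 and 13.26 against 13.71 and 13.71 (0.63, SE 0.17, limma adjusted p = 0.2216).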
